A study of Mus musculus with 6 samples.

Results

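The cholesterol and fatty acid synthesis genes described here are 29 genes of the deposited expression table, which lists 25251 genes. They were taken by name, as the rows whose gene name equals one of 29 listed symbols. All 29 passed the filter on low values, a mean of at least 10 normalized counts over the 6 libraries, as did 14639 genes of the table. By role they fall into 6 genes of the mevalonate steps, 11 of the steps from farnesyl diphosphate through squalene to cholesterol, 5 regulators and sterol transport genes, and 7 genes of fatty acid synthesis. Some genes of these pathways were not analysed here.

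RNA was sequenced in bulk from 6 subcutaneous tumours grown in BALB/c mice from CT26, a mouse colon carcinoma line whose genotype the labels give as WT. The 3 control samples came from mice given solvent. The 3 irinotecan samples came from mice given CPT-11, a prodrug of a topoisomerase I inhibitor, at 25 mg/kg into the peritoneal cavity every 4 days. Mice had been randomized at a tumour volume of 100 mm3. No source used here gives the age or sex of the mice, or how long after the last dose tumours were taken. The submitters' design text mentions duplicates, but 3 samples per group are labelled and all were used. Whether each came from its own mouse is not stated, and the p-values measure only how far these samples spread.

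Cholesterol is built from acetyl-CoA. The mevalonate steps make isoprenoid units that are joined to squalene, and squalene is closed to lanosterol and trimmed in many further steps to cholesterol. Fatty acids start from the same acetyl-CoA, which ATP citrate lyase and acetyl-CoA synthetase supply. When sterols are scarce in the endoplasmic reticulum, the escort protein SCAP carries the SREBP transcription factors to the Golgi for cleavage, and the freed fragment switches on genes of both pathways together with the factors NF-Y and Sp1. INSIG proteins hold SCAP back when sterols are plentiful.

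The promoters of 3 members are shown as examples from the 6 whose irinotecan and control values did not overlap. Whether the motifs go with the size of a change was not tested. All 3 promoters hold CCAAT, and that of Hmgcs1 also holds TCACNCCAC, 2 motifs known from promoters of SREBP targets. They are from RefSeq on GRCm38.p6, on the strand of the gene. Hmgcs1 is shown at chr13:119690191-119690350 (plus strand), Lss at chr10:76531445-76531587 (plus strand) and Fasn at chr11:120824548-120824707 (minus strand). Bases inside the deposited span of the gene were left out. Capitals mark TCACNCCAC, a core of the sterol regulatory element that SREBPs bind, and CCAAT, the box bound by NF-Y, each read on either strand. In Fasn a CCAAT on each strand overlaps in one capital stretch.
Hmgcs1: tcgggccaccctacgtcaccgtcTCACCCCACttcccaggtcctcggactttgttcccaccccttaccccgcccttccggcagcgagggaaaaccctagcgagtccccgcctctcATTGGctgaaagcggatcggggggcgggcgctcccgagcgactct
Lss: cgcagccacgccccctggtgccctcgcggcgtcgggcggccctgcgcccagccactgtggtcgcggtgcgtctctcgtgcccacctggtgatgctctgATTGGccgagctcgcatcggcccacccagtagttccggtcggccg
Fasn: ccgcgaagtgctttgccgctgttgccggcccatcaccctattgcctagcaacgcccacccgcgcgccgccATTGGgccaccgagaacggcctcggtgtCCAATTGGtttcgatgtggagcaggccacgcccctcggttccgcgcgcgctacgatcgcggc

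Of the 29 members, 23 matched a RefSeq promoter, a window of 250 bases before to 50 bases after the start of the gene. TCACNCCAC was found in 1 of the 23, Hmgcs1, where it begins 137 bases before the start, against 1.44% of the 27025 genes of that promoter table. CCAAT was found in 21 of the 23 (91.3%), the exceptions being Acaca and Elovl6, against 41.1% of all genes. It was present in all 14 matched genes of the sterol steps. GGGCGG, the GC box bound by Sp1, was found in 19 of the 23 (82.6%) against 38.2%. Both strands were searched, and a match is a string of letters, not a site shown to be bound. A gene with several windows counted once if any of them held the motif.

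The libraries held 13940650 to 15656894 reads. Irinotecan replicate 1 stood apart over all genes: its log2 values correlated with the other libraries at r between 0.932 and 0.941, against 0.975 to 0.985 among the other pairs. In that library, genes with a GC content over 60% had a median log2 difference of -0.76 from the control mean, and genes longer than 8000 bases one of 0.36. The members had a median GC content of 50.4% and a median length of 5104 bases, against 50.1% and 3968 bases over the genes tested. Summed markers of epithelium or carcinoma were 302 to 351 normalized counts in controls and 169 to 403 with irinotecan. Of these 9 genes, 5 stayed under 10 in every library, Epcam among them with at most 2.89, while Krt8, Krt18, Lgals4 and Cdh1 were present. Krt8, Krt18 and Lgals4 were each lowest in irinotecan replicate 1, whereas Cdh1 was highest there, at 38.0. Because irinotecan replicate 1 stood apart, a log2 fold change of a named gene that moved by over 1.5 times when it was left out is given both ways.

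No member passed the test of irinotecan against control (limma on log2 values, Benjamini-Hochberg adjusted over all 14639 genes, lowest adjusted p among members 0.743). The share of all tested genes called was 0% as well. DESeq2 on recovered reads called 0 members and 0.318% of genes, and the authors' deposited table had 0 members and 0.186% of genes under an adjusted p of 0.05. Without adjustment, 6 members had a p under 0.05 with higher values (Hmgcs1, Lss, Cyp51, Msmo1, Acss2 and Fasn), against 2.68% of all tested genes, and 0 had one with lower values, against 3.08%. The values below therefore describe sizes and spreads, and no single gene can be called changed.

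Most members had somewhat higher values with irinotecan. The members were chosen with earlier results of these data known. Comparisons with all tested genes, above and below, therefore describe the members and are no independent test. A positive log2 fold change was found for 24 of the 29, against 48.2% of all tested genes. Its median over the members was 0.25, with a range from -0.07 to 0.88, against -0.01 over all tested genes. Without irinotecan replicate 1 the median was again 0.25, with 26 of 29 positive. The median rested more on the controls: it was 0.15 without control replicate 1 and 0.37 without control replicate 2. Summed over the members, normalized counts were 48111, 62488 and 55740 in controls and 78142, 62175 and 62813 with irinotecan. Control replicate 2 thus lay within the range of the irinotecan libraries on this sum, which the few most abundant genes dominate. In bulk tumour RNA, a change in the number of cells of a type and a change in RNA per cell cannot be told apart.

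In 6 members each irinotecan library lay above each control library: Hmgcs1, Lss, Cyp51, Dhcr7, Acss2 and Fasn. The share of all tested genes with that pattern was 6.68%. The opposite pattern held for 0 members and for 7.89% of tested genes. With irinotecan replicate 1 left out, both remaining irinotecan libraries lay above all controls in 11 members, against 12.8% of tested genes. Leaving out any other single library gave 6 to 11 members, against 9.29% to 13.4% of tested genes. Without control replicate 3, 1 member, Pmvk, had irinotecan values that were all below the controls, against 12.3% of tested genes. The plot of single libraries shows these 6 genes beside Scd1 and Stard4, in which a single irinotecan library carried much of the difference.

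**Figure D1:**
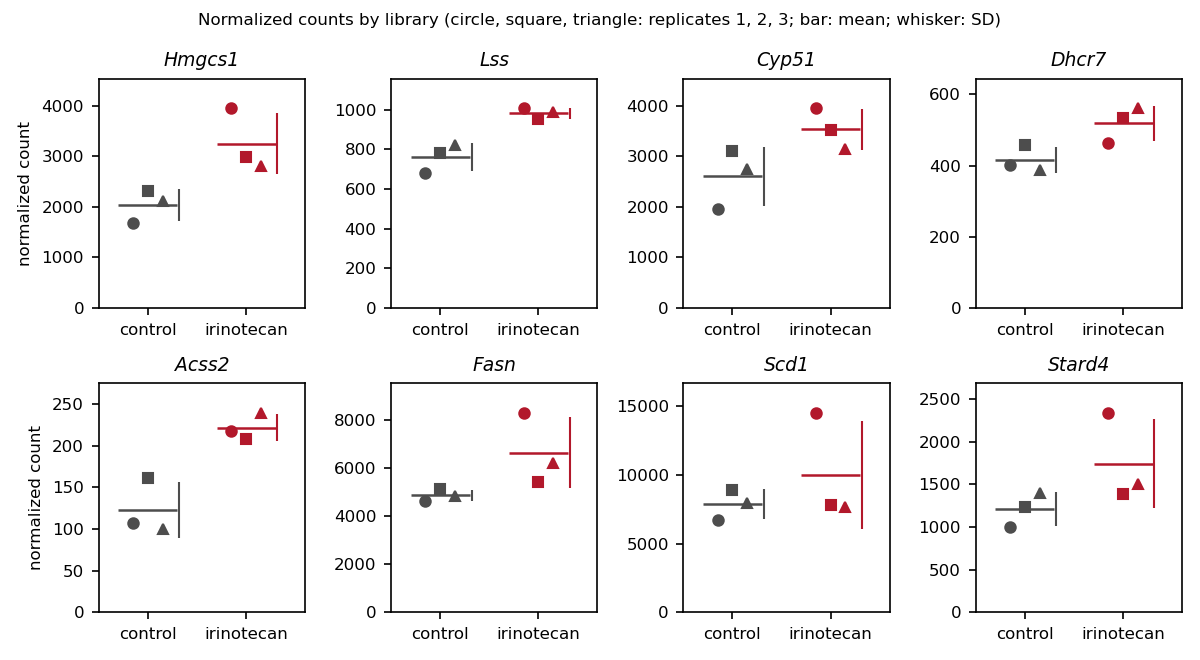
Normalized counts in each library for 8 members, on axes that start at 0, with group means as bars and the SD (n = 3 per group) as whiskers. The first 6 panels show groups that do not overlap, such as Acss2 with controls up to 161 and irinotecan libraries from 208, while in Scd1 irinotecan replicate 1 stands alone at 14493.

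The genes of the mevalonate steps gave uneven values. Hmgcs1, the synthase that condenses acetoacetyl-CoA with acetyl-CoA early in the pathway, had 1677, 2307 and 2123 normalized counts in controls and 3947, 2995 and 2809 with irinotecan. All 3 irinotecan libraries were above all 3 controls, with irinotecan replicate 1 the highest. The means were 2036 ± 324 and 3250 ± 611 (SD, n = 3 each). The log2 fold change was 0.67 (SE 0.18, limma unadjusted p = 0.0055, adjusted p = 0.743), with a 95% interval from 0.26 to 1.09. Without irinotecan replicate 1 it was 0.52, with an interval from 0.23 to 0.81. Hmgcs1 (ENSMUSG00000093930) lies at chr13:119690379-119708260 on the plus strand of GRCm38.

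The other mevalonate genes gave smaller differences. Mvk, mevalonate kinase, had 323.5, 324.1 and 307.0 in controls and 323.4, 357.3 and 363.9 with irinotecan. Pmvk, the next kinase, had 108.4, 101.4 and 69.7 against 84.2, 83.8 and 98.3. In Mvk irinotecan replicates 2 and 3 were above every control and irinotecan replicate 1 lay among them, while in Pmvk all irinotecan values lay within the control range. The log2 fold change was 0.13 (SE 0.15) for Mvk and -0.05 (SE 0.25) for Pmvk, which became -0.01 without irinotecan replicate 1. Mvd, the decarboxylase that makes isopentenyl diphosphate, had 218, 272 and 286 in controls and 197, 317 and 319 with irinotecan. Irinotecan replicate 1 was the lowest of the 6 libraries there and the other two were the highest, so the log2 fold change of Mvd was 0.08 with that library and 0.31 without it. Idi1, which isomerizes isopentenyl diphosphate, had 594, 820 and 903 against 1073, 887 and 771. Its groups overlapped, and the log2 fold change of Idi1 was 0.25 (SE 0.20), 0.12 without irinotecan replicate 1 and 0.07 without control replicate 1. Over the 6 mevalonate genes 4 log2 fold changes were positive and the median was 0.10, with values from 0.03 without irinotecan replicate 3 to 0.17 without irinotecan replicate 1.

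Fdps, which makes farnesyl diphosphate, was low, at 60.8, 68.0 and 54.2 normalized counts in controls and 47.2, 75.1 and 61.8 with irinotecan. Its level is uncertain, since 86.4% of the 50-base words of its longest coding transcript also occur in transcripts of other genes, the processed pseudogenes Gm3571 and Gm5873 and the locus Gm43738. Gm3571 alone had 102.8, 104.6 and 92.0 in controls and 105.8, 142.5 and 146.0 with irinotecan. Summed over Fdps, Gm3571 and Gm5873, the values were 168, 178 and 154 against 160, 236 and 223. Fdps itself had a log2 fold change of -0.0094, and 0.16 without irinotecan replicate 1. On the sum irinotecan replicates 2 and 3 lay above all controls and irinotecan replicate 1 did not. Shared words over 10% were also found for Acaca (52.6%), Fdft1 (30.7%), Idi1 (30.5%) and Hmgcs1 (13.6%), and 15 members had none.

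The genes of the steps from squalene to cholesterol had a higher median in each irinotecan library than in any control. Of these 11 genes, 10 had a positive log2 fold change and the median was 0.32. Without irinotecan replicate 1 all 11 were positive, with a median of 0.33, and leaving out any 1 library kept the median between 0.25 and 0.39. Fdft1, squalene synthase, had 877, 1117 and 1203 in controls and 1583, 1416 and 1172 with irinotecan. Sqle, squalene epoxidase and a slow step of the pathway, had 1956, 2680 and 2685 against 3351, 2974 and 2635. In both genes irinotecan replicate 3 lay among the controls while the other two irinotecan libraries exceeded them.

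Lss, which closes the squalene epoxide to lanosterol, had 682, 779 and 822 normalized counts in controls and 1006, 951 and 989 with irinotecan. The irinotecan libraries were close together and above every control. The log2 fold change was 0.37 (SE 0.13, interval 0.07 to 0.68) and was 0.35 without irinotecan replicate 1. Lss (ENSMUSG00000033105) lies at chr10:76531588-76557138 on the plus strand. Cyp51, lanosterol demethylase, had 1965, 3097 and 2751 in controls and 3944, 3516 and 3132 with irinotecan. The lowest irinotecan library was just above the highest control, and the log2 fold change of Cyp51 was 0.46 (interval 0.03 to 0.89).

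Msmo1, the methylsterol oxidase that follows, had 2220, 3004 and 3044 normalized counts in controls and 4035, 3884 and 3040 with irinotecan. Its groups met at irinotecan replicate 3, and its log2 fold change was 0.41. Hsd17b7, a ketosteroid reductase of the same demethylation complex, had 285, 431 and 584 in controls and 843, 549 and 501 with irinotecan. Its control libraries spanned 285 to 584, and the log2 fold change of Hsd17b7 was 0.56 (SE 0.29, interval -0.11 to 1.23). It was 0.33 without irinotecan replicate 1 and 0.29 without control replicate 1. Dhcr7, which makes cholesterol from its last precursor in one arm of the pathway, had 402, 457 and 386 against 464, 533 and 560. All irinotecan libraries of Dhcr7 exceeded the controls, and here irinotecan replicate 1 was the lowest of them. Dhcr7 had a log2 fold change of 0.32 (interval -0.03 to 0.67), and 0.40 without that library.

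In 3 other sterol genes irinotecan replicate 1 lay at the bottom of all 6 libraries. Nsdhl, the sterol dehydrogenase of the demethylation complex, had 632, 692 and 678 normalized counts in controls and 453, 823 and 771 with irinotecan. Ebp, a sterol isomerase, had 468, 446 and 446 against 302, 506 and 679. Tm7sf2, a sterol reductase, had 55.2, 73.2 and 53.3 against 39.0, 82.8 and 75.0. In each of the 3 the other two irinotecan libraries were above every control. With all libraries the log2 fold changes were -0.02, 0.05 and 0.06, and without irinotecan replicate 1 they were 0.26, 0.37 and 0.39. Sc5d, a sterol desaturase, had 668, 991 and 870 in controls and 968, 951 and 895 with irinotecan, and its groups overlapped.

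**Figure D2:**
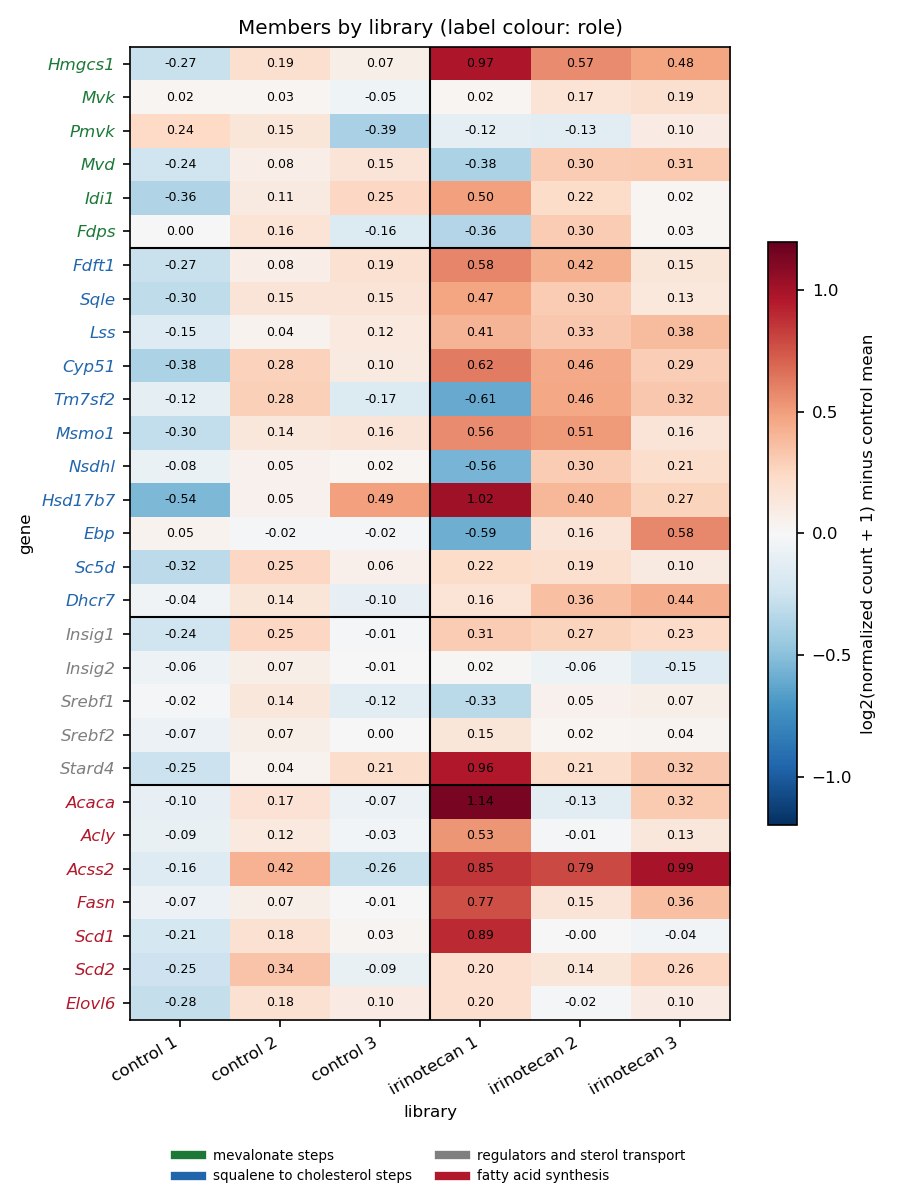
Difference of log2(normalized count + 1) from the control mean for each of the 29 members (rows, grouped by role) in each library (columns), with the value printed in each cell. Control replicate 1 is mostly below the control mean, and irinotecan replicate 1 holds both the highest values, such as 1.14 for Acaca, and the lowest, such as -0.61 for Tm7sf2.

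For each of the regulators and the sterol carrier the interval of the log2 fold change included 0. Insig1, itself a known SREBP target, had 1013, 1425 and 1183 normalized counts in controls and 1479, 1443 and 1404 with irinotecan. Insig2, which is not controlled in that way, had 966, 1058 and 1002 against 1020, 966 and 908. Divided by gene length, Insig1 stood to Insig2 at ratios of 1.18, 1.51 and 1.33 in controls and 1.63, 1.68 and 1.74 with irinotecan. The ratio was higher in each irinotecan library than in any control, although the groups overlapped for each gene alone. Srebf1 to Srebf2 overlapped, at 0.85, 0.86 and 0.75 against 0.59, 0.83 and 0.84. These ratios were not tested, and how often other gene pairs separate the groups was not counted. The log2 fold changes were 0.27 (interval -0.08 to 0.62) for Insig1 and -0.06 (interval -0.35 to 0.22) for Insig2, which was -0.11 without irinotecan replicate 1.

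Srebf2, whose product mainly drives sterol genes, had 3537, 3902 and 3728 in controls and 4125, 3777 and 3811 with irinotecan, a log2 fold change of 0.07 (interval -0.21 to 0.35) that was 0.03 without irinotecan replicate 1. Srebf1, whose product mainly drives fatty acid genes, had 2351, 2618 and 2181 against 1893, 2464 and 2500. Its log2 fold change was -0.07 with all libraries and 0.06 without irinotecan replicate 1. These are transcript levels and say nothing of the cleaved proteins. Stard4, a sterol carrier of the cytosol, had 1006, 1234 and 1393 normalized counts in controls and 2336, 1389 and 1502 with irinotecan. Irinotecan replicate 1 carried much of that difference, with a log2 fold change of 0.50 for Stard4 with it and 0.27 without it. The median over the 5 regulators and transport genes was 0.07, from 0.03 without control replicate 1 to 0.10 without control replicate 2.

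Of the fatty acid synthesis genes, 5 had their highest value in the same library, irinotecan replicate 1. The log2 fold change was positive for all 7 and had a median of 0.28, but without irinotecan replicate 1 the median was 0.09 and 6 of 7 were positive. Acaca, acetyl-CoA carboxylase, had 1160, 1400 and 1179 normalized counts in controls and 2731, 1133 and 1549 with irinotecan. Irinotecan replicate 2 was below every control there, and the log2 fold change of Acaca was 0.44 with irinotecan replicate 1 and 0.09 without it. The processed pseudogene Gm5182, which shares words with Acaca, followed the same order with irinotecan, at 455, 187 and 266. Scd1, the stearoyl-CoA desaturase of many lipid-forming tissues, had 6739, 8873 and 7968 in controls and 14493, 7788 and 7623 with irinotecan. Without irinotecan replicate 1 its log2 fold change passed from 0.28 to -0.02.

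Fasn, fatty acid synthase, had 4630, 5107 and 4822 normalized counts in controls and 8275, 5398 and 6218 with irinotecan. All irinotecan libraries exceeded the controls, irinotecan replicate 2 narrowly. Fasn had a log2 fold change of 0.43 (SE 0.17, interval 0.03 to 0.83), and 0.26 (interval 0.03 to 0.48) without irinotecan replicate 1. Fasn (ENSMUSG00000025153) lies at chr11:120805846-120824547 on the minus strand. Acly, ATP citrate lyase, had 3122, 3595 and 3247 against 4790, 3290 and 3637. As in Acaca, irinotecan replicate 1 stood above the rest, and the log2 fold change of Acly was 0.22 with it and 0.06 without it.

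Acss2, which makes acetyl-CoA from acetate, gave the highest log2 fold change of the 29. It had 107.5, 161.0 and 99.7 normalized counts in controls and 217.7, 208.0 and 239.2 with irinotecan. The 3 irinotecan values lay close together and above every control. The means were 122.8 ± 33.4 and 221.6 ± 16.0 (SD, n = 3 each), a ratio of 1.81. The log2 fold change was 0.88 (SE 0.23, interval 0.35 to 1.40, limma unadjusted p = 0.0047, adjusted p = 0.743), and 0.89 without irinotecan replicate 1. Acss2 (ENSMUSG00000027605) lies at chr2:155517948-155585724 on the plus strand and overlaps Ggt7 and Gss on the opposite strand. The spans of 7 other members also overlap an opposite neighbour, among them Fdft1 with Ctsb, Cyp51 with Akap9 and Srebf1 with Rai1. No source used here gives the strand setting of the counting, so reads from shared transcript stretches may not be told apart. Such stretches were mostly short. Words shared with other genes, on either strand, made up 7.4% for Acss2, 3.2% for Cyp51 and 1.4% for Srebf1, but 30.7% for Fdft1.

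For the other lipid genes the intervals were wide enough to include 0. Scd2, the desaturase with the highest level per length of all members, had 9406, 14237 and 10520 normalized counts in controls and 12890, 12363 and 13402 with irinotecan. Control replicate 2 was the highest of the 6 libraries. Elovl6, which lengthens the product of fatty acid synthase, had 882, 1219 and 1151 against 1231, 1056 and 1147. The intervals of the log2 fold change ran from -0.21 to 0.61 for Scd2 and from -0.28 to 0.46 for Elovl6, whose log2 fold change was 0.09 with irinotecan replicate 1 and 0.04 without it. Per length, Scd1 stood to Scd2 at 0.81, 0.70 and 0.85 in controls and at 1.27, 0.71 and 0.64 with irinotecan, so that Scd1 exceeded Scd2 in irinotecan replicate 1 and in no other library.

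**Figure D3:**
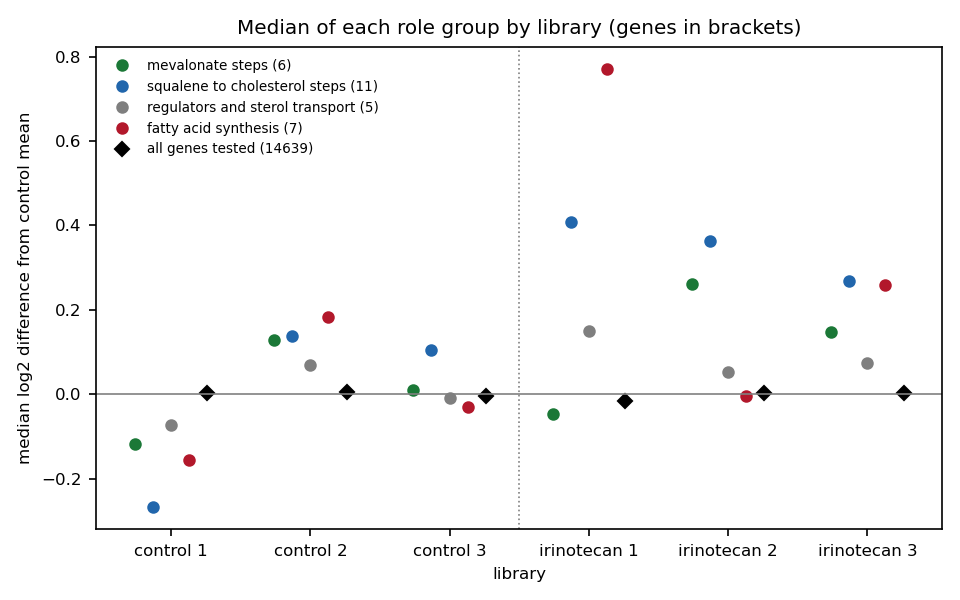
Median log2 difference from the control mean over the genes of each role group (circles) and over all 14639 tested genes (diamonds), in each library. The squalene to cholesterol steps lie at 0.41, 0.36 and 0.27 in the irinotecan libraries, whereas fatty acid synthesis lies at 0.77, -0.0041 and 0.26.

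The role groups thus differed in how they spread over libraries. The median log2 difference of the squalene to cholesterol genes from the control mean was -0.27, 0.14 and 0.10 in the controls and 0.41, 0.36 and 0.27 in the irinotecan libraries. For fatty acid synthesis the values were -0.16, 0.18 and -0.03 against 0.77, -0.0041 and 0.26, and the groups overlapped. For the mevalonate genes they were -0.12, 0.13 and 0.01 against -0.05, 0.26 and 0.15, again with overlap. Differences between the role groups were not tested. Control replicate 1 was the lowest of the 6 libraries in 17 of the 29 members (58.6%), against 14.4% of tested genes. Irinotecan replicate 1 was the highest in 16 (55.2%), against 34.2%, and the lowest in 6 (20.7%), against 36.8%.

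**Figure D4:**
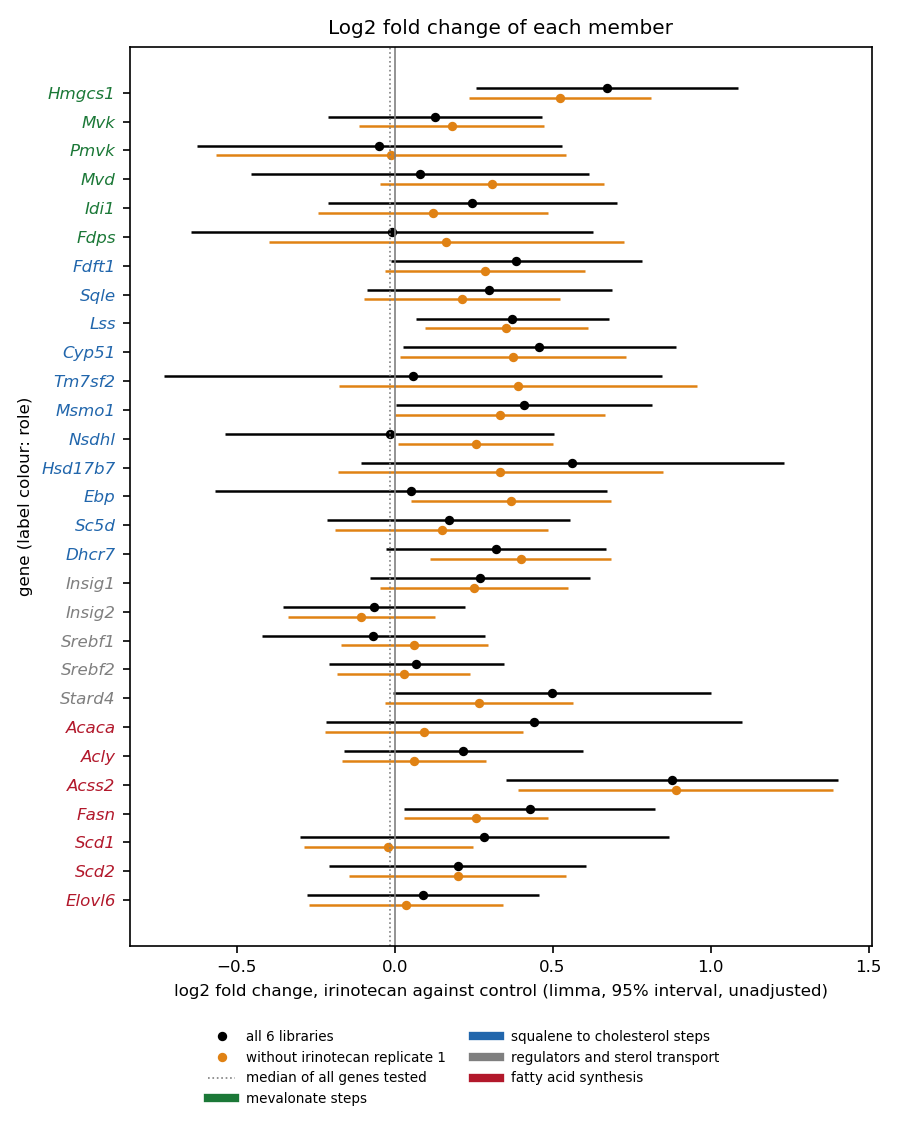
Log2 fold change of each member with its 95% interval (limma, not adjusted for the number of genes), with all 6 libraries in black and without irinotecan replicate 1 in orange. The intervals of Hmgcs1, Lss, Cyp51, Msmo1, Acss2 and Fasn lie above 0 in both fits, and those of Nsdhl, Ebp and Dhcr7 do so without irinotecan replicate 1.

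Within the tumours the levels of the members spanned a wide range. Divided by the deposited gene length, the control mean was 2088 normalized counts per kb for Scd2, 1625 for Scd1, 629 for Acly, 590 for Cyp51 and 518 for Srebf2. Scd2 stood at percentile 98.3 of the tested genes on this scale. At the low end were Fdps at 14.5, Acss2 at 12.1 and Tm7sf2 at 10.8 per kb, with Tm7sf2 at percentile 13.4. The gene with the highest fold change was thus among the 3 lowest in level.

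Marker sums of other cell types varied between libraries. The lowest macrophage sum was that of irinotecan replicate 1, which stood apart over all genes. Summed macrophage markers were 22732 to 23755 normalized counts in controls and 11024, 23908 and 20227 in the irinotecan libraries, so the library with the highest fatty acid genes had the lowest macrophage sum. Endothelial markers summed to 1972 to 2309 in controls and 1278 to 1708 with irinotecan. Fibroblast markers summed to 25965 to 35388 and 31343 to 34076, leukocyte markers to 1326 to 1675 and 1160 to 1703, and muscle markers to 23.0 to 312 and 110 to 678. The fibroblast sum was mostly Col1a2 and hid opposite moves. In irinotecan replicate 1 Col1a1 and Lum were at their lowest, 1623 and 92.4, and Pdgfra at its highest, 1181. The part of these cell types in the results was not tested. Fat cells also make fatty acids, and 8 adipocyte markers summed to 311 to 492 in controls and 343 to 510 with irinotecan. Of these, 6 stayed under 10 in every library, and Adipoq, which fat cells secrete, was at most 3.14 and was listed at 0 in all irinotecan libraries. Nearly all of the adipocyte sum came from Fabp4 and Plin4, which went opposite ways in irinotecan replicate 1. There Plin4 was at its highest, 289, and Fabp4 at its lowest, 97.5. Skin and sebaceous markers summed to 48.1 to 77.5 and 37.5 to 85.7.

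Lists of genes around both pathways had medians nearer to 0 than the median of 0.25 over all 29 members. This did not hold against each role group. The medians were 0.32 for the squalene to cholesterol steps and 0.28 for fatty acid synthesis, which was 0.09 without irinotecan replicate 1. Those of the mevalonate steps, 0.10, and of the regulators and transport genes, 0.07, were about as near to 0 as the isoprenoid list. That likeness depended on the processing. With the trend of GC content and gene length removed, these medians were 0.29 and 0.18, against 0.11 for the isoprenoid list. Of 11 genes of the isoprenoid branch and of SREBP processing, 0 were called and 8 were positive, and their median log2 fold change of 0.10 became -0.06 without irinotecan replicate 1. Acat2, which makes the acetoacetyl-CoA used by Hmgcs1, had 847, 963 and 999 normalized counts in controls and 1015, 1345 and 1167 with irinotecan, with no overlap and a log2 fold change of 0.32 (SE 0.15). Ggps1, which makes geranylgeranyl diphosphate, had a log2 fold change of 0.21 (SE 0.17), and 0.05 without irinotecan replicate 1. Mbtps1, the first protease that cleaves SREBPs, had one of 0.16 (SE 0.15), and 0.04 without that library.

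Of 14 genes of sterol uptake, trafficking, storage and efflux, 0 were called, 5 had a positive log2 fold change and the median was -0.05, which became 0.03 without irinotecan replicate 2. Scarb1, a receptor for high-density lipoprotein, had 1174, 1192 and 1109 normalized counts in controls and 545, 834 and 982 with irinotecan. All irinotecan libraries of Scarb1 were below the controls, and its log2 fold change was -0.60 (SE 0.21) with irinotecan replicate 1 and -0.35 without it. Soat2, which esterifies cholesterol for storage, had 1408, 752 and 1148 against 635, 839 and 615, with overlap at control replicate 2 and a log2 fold change of -0.63 (SE 0.24). Mylip, a ubiquitin ligase for lipoprotein receptors, had a log2 fold change of 0.24 (SE 0.15).

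Of 15 tested genes for fatty acid supply, elongation, desaturation and activation, 0 were called, 8 had a positive log2 fold change and the median was 0.01. Mlxipl, which encodes the glucose-responsive factor ChREBP, was low, with 30.9, 43.9 and 57.1 normalized counts in controls and 0, 17.3 and 23.3 with irinotecan. All irinotecan libraries of Mlxipl were below the controls, with SDs of 13.1 and 12.1 around means of 44.0 and 13.5. Mlxipl had a log2 fold change of -2.51, and -1.05 without irinotecan replicate 1, where the gene was listed at 0. Fads1, a desaturase of polyunsaturated fatty acids, had a log2 fold change of 0.30 (SE 0.15), and Acacb, the carboxylase that restrains fatty acid oxidation, one of 0.51 (SE 0.25) with irinotecan replicate 1 and 0.33 without it. Of 9 tested genes of fatty acid oxidation, 0 were called, 6 were positive and the median was 0.03, which became -0.01 without control replicate 3. In that list the log2 fold changes of Hadha, Acadm and Acadvl were 0.24, 0.18 and 0.18, with SEs of 0.16, 0.13 and 0.18. Without irinotecan replicate 1 those of Hadha and Acadvl were both 0.11.

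The authors' deposited table gave a positive log2 fold change for 26 of the 29 members. In the authors' deposited table the lowest adjusted p among members was 0.171, for Hmgcs1, followed by 0.214 for Acss2. Their deposited log2 fold changes were 0.68 and 0.85.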

How the data were processed

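Bulk RNA sequencing of 3 control and 3 irinotecan tumour samples was used. The submitters' processing notes name build GRCm38 (mm10) and, without their roles, DESeq2 1.20.0, HISAT2 2.0.5, featureCounts 1.5.0-p3, fastp and CASAVA. Which annotation release and strand setting were used is not given in any source here. The authors deposited a normalized signal, read counts divided by 1 factor per library, with the gene length and coordinates. In each library 100% of deposited values came out as whole multiples of 1 read (tolerance 1e-06), so whole reads were recovered. The authors also deposited log2 fold changes and p-values, per the file headers.

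Because no raw counts are held, limma 3.58.1 in R 4.3.3 (empirical Bayes, mean-variance trend, group only) was run on log2(normalized count + 1) in place of the planned edgeR test, for genes with a mean of at least 10. The fold changes refer to these values, and the added 1 makes them smaller for low genes. A library listed at 0 can make them larger instead. For Mlxipl the log2 fold change of -2.51 stands for a ratio of 0.175, against 0.308 for the means. Genes with an adjusted p under 0.05 were called. Every member is named. The 3 genes with the smallest unadjusted p are named from each of 4 further lists, and markers of other cell types as sums. Members and lists were chosen with earlier results of these data known. The limma test was checked on simulated counts in which no library stood apart and no GC or length trend was put in. Shared 50-base words and GC content were taken from GENCODE M21 transcripts. Alternatives were quantile normalization, pseudocounts of 0.5 and 10, no low-value filter, edgeR 4.0.16 with TMM, DESeq2 1.42.0, library weights, a replicate block, removal of a GC and length trend, and each library left out. The libraries are described without molecular identifiers, so reads may repeat molecules, and depth speaks to counting error alone.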

Additional observations from a re-analysis of the deposited data

How the results depend on the processing

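No member was called under any of the 15 alternatives, and 20 of 29 kept their sign in all of them. Over all genes, library weights called 30 higher and 22 lower and DESeq2 called 28 and 18. Leaving out 1 library called 0 to 2 genes higher and 0 lower. The replicate numbers did not pair the libraries (r of same-numbered deviations -0.11, -0.01 and -0.21), and the fit with the replicate block called 0 genes and left the members' median at 0.25. With 3 libraries per group, the unadjusted limma intervals of single members had half-widths from 0.28 for Srebf2 to 0.79 for Tm7sf2. A log2 fold change smaller than the half-width of its gene could not be told from 0. After adjustment over all genes, even the log2 fold change of 0.88 for Acss2 was not called. Causes of the shifts below were not tested.

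Removing the GC and length trend gave a median log2 fold change of 0.29 for the mevalonate steps, 0.18 for regulators, 0.16 for fatty acid oxidation and -0.0096 for fatty acid supply. The summed level gave 0.48 for the mevalonate steps. Library weights gave -0.016 for the isoprenoid list and -0.021 for fatty acid supply, and quantile normalization gave -0.017 for fatty acid supply and 0.088 for fatty acid oxidation. With 1 library left out, medians ranged from 0.15 to 0.37 for all members, -0.056 to 0.17 for the isoprenoid list, -0.073 to 0.035 for sterol uptake, -0.064 to 0.056 for fatty acid supply and -0.012 to 0.11 for fatty acid oxidation.

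The 9 members that changed sign had log2 fold changes near 0 with all libraries, apart from Scd1. Quantile normalization gave 0.030 for Pmvk, 0.031 for Fdps and 0.033 for Nsdhl. Library weights gave 0.16 for Fdps, 0.24 for Nsdhl and 0.047 for Srebf1. Removing the GC and length trend gave 0.17 for Pmvk, 0.047 for Fdps, 0.023 for Nsdhl and 0.13 for Srebf1. For Fdps edgeR gave 0.0125 and DESeq2 0.0117, and for Nsdhl 0.0339 and 0.0322. With 1 library left out, values ranged from -0.24 to 0.073 for Pmvk, -0.039 to 0.31 for Mvd, -0.17 to 0.16 for Fdps, -0.14 to 0.39 for Tm7sf2, -0.17 to 0.26 for Nsdhl, -0.21 to 0.37 for Ebp, -0.14 to 0.063 for Srebf1, -0.020 to 0.44 for Scd1 and -0.052 to 0.18 for Elovl6.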
